A study of Mus musculus with 19 samples.

Results

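The 83 genes for the proteins of the cytoplasmic ribosome were followed in E0771 tumor cells sorted from lean and obese mice. They were the rows of the count table whose symbol follows the pattern of large-subunit (Rpl) or small-subunit (Rps) genes, with Rpsa, Rplp0, Rplp1 and Rplp2 added. Of 39017 rows, 86 symbols matched and 3 pseudogenes were dropped, which left 52 genes of the large subunit and 31 of the small subunit. A filter on low counts kept 81 of them, and Rpl10l and Rpl39l did not pass.

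E0771 is a mouse mammary carcinoma line that grows in C57BL/6 hosts, and here it carried the red fluorescent protein mCherry. In the labels, lean mice are paired with chow and obese mice with a high-fat diet (HFD), and all hosts are given as c57bl6. Each mouse received 50000 cells in a mammary fat pad, and the tumor was taken at day 14 (midpoint) or day 21 (endpoint). Tumors were dissociated and mCherry-positive cells were sorted, with the cells of each tumor kept as a library of their own. The groups were lean midpoint (n = 4), obese midpoint (n = 5), lean endpoint (n = 5, of which 4 were used) and obese endpoint (n = 5). All groups rest on 1 implanted line. Time points were harvested on different days of growth, so tumor age and the day of collection cannot be told apart.

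The cytoplasmic ribosome joins a large and a small subunit, each a scaffold of ribosomal RNA with many different proteins that are made in matched amounts. The messenger RNAs of these proteins start with a cytosine followed by a tract of pyrimidines, the 5′ terminal oligopyrimidine (TOP) motif, through which the kinase mTOR and the RNA-binding protein Larp1 set their translation. Rapidly growing carcinoma cells are known for high ribosome production, and a few ribosomal proteins have paralogs that differ in where they are expressed.

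The start regions of 10 members are shown because they include typical genes and the ones that moved apart from the family. Each line holds 20 bases before and 20 bases from the start site annotated by RefSeq (GRCm38.p6), 5′ to 3′ on the gene's strand. Capitals mark the longest run made only of C and T.
Rps6: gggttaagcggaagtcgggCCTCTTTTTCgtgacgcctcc
Rpl28: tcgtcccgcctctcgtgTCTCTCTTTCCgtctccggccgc
Rpl35: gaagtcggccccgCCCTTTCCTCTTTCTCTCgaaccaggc
Rpl18: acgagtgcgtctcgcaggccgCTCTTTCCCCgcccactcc
Rpl36a: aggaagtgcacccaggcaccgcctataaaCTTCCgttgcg
Rpl4: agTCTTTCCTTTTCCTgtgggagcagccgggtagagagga
Rpl5: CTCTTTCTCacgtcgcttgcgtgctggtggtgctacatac
Rpl22l1: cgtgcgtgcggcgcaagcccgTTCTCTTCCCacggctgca
Rpl22: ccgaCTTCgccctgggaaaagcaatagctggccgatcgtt
Rpl24: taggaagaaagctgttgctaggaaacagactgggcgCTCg
The Rps6 window is chr4:86857348-86857387 on the minus strand, and its run of 10 pyrimidines begins 1 base before the annotated start. The Rpl24 window is chr16:55966255-55966294 on the plus strand, and its longest run is 3 bases. The Rpl22l1 window is chr3:28805488-28805527 on the plus strand, with a run of 10.

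RefSeq promoter entries existed for 63 members, some with several starts, 75 in all. A run of at least 8 pyrimidines within 20 bases of the start was present in 41.3% of these 75 starts and in 16.1% of all 32851 mouse promoters in the table. The letters CTTCCG, on either strand of the 300-base promoter, stood in 60.0% of member starts and 16.9% of all. CTTCCG contains the core that ETS-family transcription factors bind. These matches describe letters near annotated starts, which can lie some bases from the start that cells use. Among tested members with a promoter entry, the 30 with such a run had a median log2 fold change of 0.48 in obese against lean at midpoint, and the 31 without it had 0.49.

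The 18 libraries used held 44174080 to 56996252 counts each. Lean endpoint replicate 4 was left out because its counts stop on chromosome 5, which leaves 67 of the 83 genes at 0 there. The share of counts on mitochondrial genome transcripts ranged from 5.79% to 44.7%, the highest in lean endpoint replicate 1. For a GC slope per library, log2 CPM of each gene was taken as the difference from its mean over the 18 libraries. The slope of these differences per 10 percentage points of GC averaged 0.26 in lean midpoint and 0.95 in obese midpoint libraries. It averaged -0.56 in lean endpoint and -0.70 in obese endpoint libraries. These slopes are relative to the other libraries. Of 6 epithelial markers, Krt8, a keratin of simple epithelia, was the only one to pass the filter, with group means of 20.4 to 47.7 CPM (counts scaled to the size of the library), while Epcam, Krt18, Krt19, Cdh1 and Krt7 were near 0. All 9 pan-leukocyte markers were detected in every group. Their summed level was 131 to 275 CPM in lean midpoint, 88.0 to 144 in obese midpoint, 97.9 to 162 in lean endpoint and 83.3 to 277 in obese endpoint libraries. The 9 fibroblast markers summed to 1301 to 3479 CPM. In sorted bulk RNA, fewer cells of a type and less RNA per cell cannot be told apart.

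Levels differed widely within the family even though ribosomal proteins are made in matched amounts. Per kilobase of counted length, the mean level over the 18 libraries was 3436 CPM for Rpl32, 1899 for Rpl8 and 1824 for Rpl4, and 1.31 for Rpl24, 5.31 for Rps13 and 5.42 for Rpl11. Rpl24 and Rpl11 belong to every ribosome, as Rpl32 does. The tissue-restricted paralogs were lowest, with 0.27 CPM per kilobase for Rpl3l, the muscle paralog of Rpl3, 0.010 for Rpl39l and 0 for the germline paralog Rpl10l.

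Much of this order went with how far a gene's sequence is shared. Ribosomal protein genes have many processed pseudogenes, and 80 of the 83 members shared at least 1 window of 50 coding bases with a pseudogene transcript. For 28 members no such window was unique in the annotated transcripts. Those 28 had a median of 17.1 CPM per kilobase, the 40 tested members with under 50% unique windows had 86.1, and the 13 with 50% or more had 356. Across the 81 tested members the Spearman correlation between the unique share and the level was 0.55, given as a description, since the genes share libraries and counting.

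**Figure D1:**
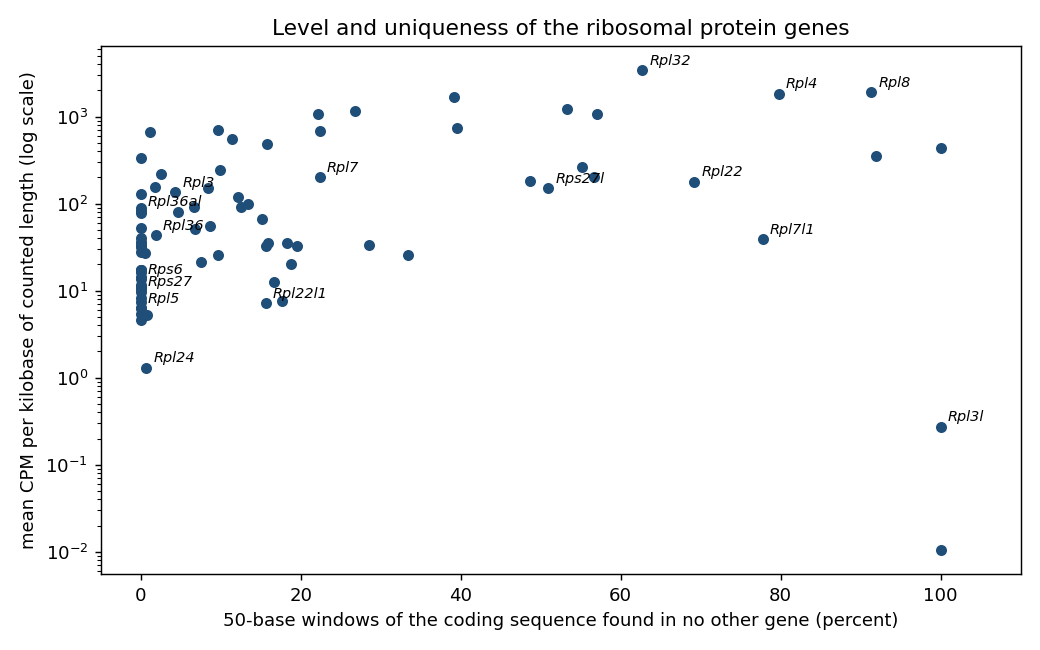
Each point is a ribosomal protein gene, with the percent of its 50-base coding windows found in no other gene on the x axis and its mean CPM per kilobase over 18 libraries on a log y axis; Rpl10l, at 0, is not drawn. The 28 genes without a unique window have a median of 17.1 CPM per kilobase, and the 13 tested genes with 50% or more unique windows have 356. Rpl24 lies lowest among the genes that pass the filter with almost no unique window (1.31).

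Counts on pseudogene rows showed where part of the family's reads lay. For 56 members the table has rows of pseudogenes named after them, 231 in all, and for 18 members these rows held more counts than the gene's own row. Rps6, a substrate of S6 kinase in the small subunit, had a mean of 1111 counts on its own row and 50436 on 4 pseudogene rows, so 97.8% lay on the pseudogenes. Rpl38 had 98.9%, Rps16 97.5% and Rpl19 97.1% of such counts on pseudogene rows. No pseudogene row is named after Rpl24, Rpl4 or Rpl22l1. How the authors' counting treated reads with several matches is not given in the sources used here, so the levels of these genes relative to each other are uncertain.

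Summed over its members, the family took a larger part of the counts at midpoint than at endpoint. Its share of counts outside the mitochondrial genome was 3.27%, 3.12%, 2.94% and 3.72% in the 4 lean midpoint libraries. It was 3.39%, 4.45%, 4.47%, 3.31% and 3.76% in the obese midpoint libraries. It was 2.17%, 2.82%, 2.18% and 2.26% in lean endpoint and 2.26%, 2.52%, 2.45%, 2.15% and 1.76% in obese endpoint libraries. All 9 midpoint libraries lay above all 9 endpoint libraries, and obese midpoint replicates 2 and 3 lay above the rest. The same 2 libraries had the steepest GC slopes, 1.52 and 1.21, and the 2 lowest mitochondrial shares, 5.93% and 5.79%.

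**Figure D2:**
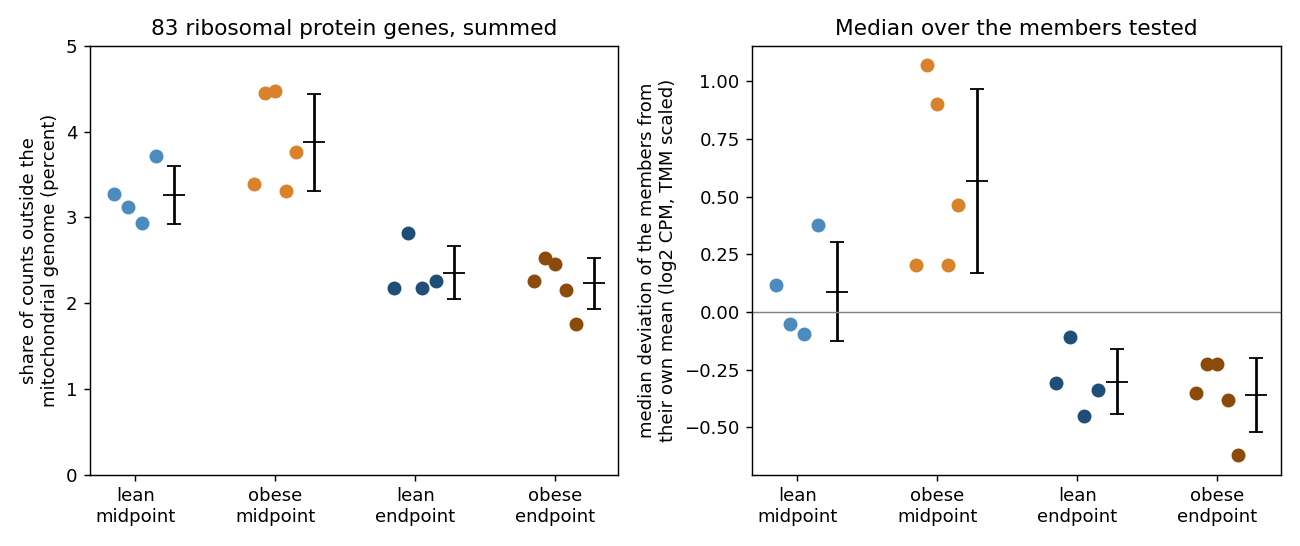
The left panel plots the summed share of the 83 genes among counts outside the mitochondrial genome for each library, and the right panel the median over the tested genes of the log2 CPM difference from each gene's mean over all libraries; points are libraries, black marks are group means with SD. Obese midpoint replicates 2 and 3 stand highest in both panels (4.45% and 4.47%; 1.07 and 0.90), and all endpoint libraries lie below 0 in the right panel.

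Most members moved together. For each tested gene, log2 CPM over the 18 libraries was correlated with the mean of the other members: the median Pearson r was 0.95, and 55 of 81 genes had r above 0.9. Rpl22l1 (-0.86), Rpl24 (-0.83), Rpl5 (-0.65), Rpl4 (-0.65) and Rps6 (-0.44) were the 5 genes with r below 0. With group means removed the median r was 0.87, and 4 genes were below 0. These values describe libraries that share depth and base composition trends.

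At midpoint, most members had higher values in obese than in lean tumors, and calls that passed the test rested on few libraries. The edgeR quasi-likelihood test with Benjamini-Hochberg adjustment called 26 of 81 members higher and 1 lower, against 16.7% of all 16352 genes tested called higher and 12.8% lower. The median log2 fold change of the members was 0.49, against -0.00 for all genes, and 77 of 81 lay above 0. The called genes were spread over both subunits, 15 of 50 tested in the large and 11 of 31 in the small subunit. Group ranges did not overlap for 1 member on the higher side, Rps2, against 4.90% of all genes, so most of the shift lay within overlapping ranges.

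The stalk proteins, which form the arm of the large subunit that recruits translation factors, were all called higher. Rplp1 measured 740, 614, 705 and 1023 CPM in lean midpoint libraries and 940, 2323, 1968, 767 and 1249 CPM in obese midpoint libraries. Its 2 highest values were in obese replicates 2 and 3. Of the other obese values, 940 and 767 CPM lay within the lean range and 1249 CPM lay above it. The log2 fold change was 0.91 ± 0.30 (SE; edgeR adjusted p = 0.0361). Rplp0 rose by 0.79 ± 0.24 (SE, edgeR adjusted p = 0.0314) and Rplp2 by 0.79 ± 0.28 (SE, edgeR adjusted p = 0.0428).

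Rpl36, a small protein of the large subunit, had the highest fold change. It measured 12.3, 9.49, 12.1 and 19.4 CPM in lean and 19.2, 37.7, 39.6, 13.6 and 25.2 CPM in obese midpoint libraries, a log2 fold change of 1.02 ± 0.28 (SE, edgeR adjusted p = 0.0304). Rpl8, the protein near the catalytic center, measured 1639, 1347, 1316 and 2141 CPM in lean and 1779, 4279, 3679, 1856 and 2530 CPM in obese libraries. In both genes obese replicates 2 and 3 were highest and the ranges overlapped. The log2 fold change of Rpl8 was 0.81 ± 0.25 (SE, edgeR adjusted p = 0.0313). After a correction for GC content and length Rpl36, Rpl8 and Rplp1 were no longer called and their log2 fold changes were -0.042, -0.024 and -0.028.

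In the small subunit, Rps2, at the entry channel of the messenger RNA, measured 953, 794, 752 and 1051 CPM in lean and 1072, 1989, 2119, 1077 and 1197 CPM in obese midpoint libraries. Every obese value lay above every lean value, though the nearest were 1051 and 1072. The log2 fold change was 0.75 ± 0.22 (SE, edgeR adjusted p = 0.0304). Rpsa, which is also known as the laminin receptor precursor, rose by 0.78 ± 0.22 (SE, edgeR adjusted p = 0.0304). Rpl11, which with Rpl5 and 5S RNA binds Mdm2 when ribosome assembly is disturbed, rose by 0.64 ± 0.22 (SE, edgeR adjusted p = 0.0394).

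The members that did not share this shift were Rpl22l1, Rpl4, Rps6, Rpl5 and Rpl24. Rpl22l1, the paralog of Rpl22, was the only member called lower, with 2.67, 2.99, 3.46 and 2.76 CPM in lean and 2.58, 0.926, 1.73, 1.97 and 1.41 CPM in obese midpoint libraries. All obese values lay below all lean values, against 3.14% of all genes with that pattern, and the log2 fold change was -0.78 ± 0.27 (SE, edgeR adjusted p = 0.0411). Rpl22 itself had a log2 fold change of 0.12 ± 0.15 (SE). Rpl4 had -0.51 ± 0.25 (SE, edgeR adjusted p = 0.116), Rps6 -0.22 ± 0.19 (SE), Rpl5 -0.11 ± 0.15 (SE) and Rpl24 0.01 ± 0.28 (SE), none of them called. With pseudogene counts added to their parent, Rps6 was called higher at 0.50 (edgeR adjusted p = 0.0435). This setting could not test the others. No pseudogene row is named after Rpl22l1, Rpl4 or Rpl24, and for Rpl5 such rows held only 3.21% of the counts.

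The midpoint calls rested on few libraries, for all genes as for the members. Without obese midpoint replicates 2 and 3 together, a setting chosen after these data had been seen, edgeR called 0 of 81 members and 0 of all 16600 genes, 1 member had an unadjusted p under 0.05, and the members' median was 0.17. Of the lean midpoint libraries, leaving out number 2 or number 3 left 0 edgeR calls among members and among all genes, with 24 and 21 members at an unadjusted p under 0.05 and medians of 0.41 and 0.38. Leaving out number 2 or number 3 of the obese midpoint libraries likewise left 0 among both, with 21 and 28 members at an unadjusted p under 0.05 and medians of 0.33 and 0.39. Without lean midpoint library 1, 4 members were called higher, against 5.43% of all genes. Without obese midpoint library 5 it was 14, against 11.5%, and without obese endpoint library 4 it was 15 higher and 1 lower, against 12.4% and 12.2%. Leaving out obese midpoint library 1 or 4 gave 49 members higher in both fits, against 24.5% and 19.6% of all genes.

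With the mean of the pan-leukocyte markers as a covariate, edgeR called 0 members and 0 of all genes at midpoint, 2 members had an unadjusted p under 0.05, and the members' median was 0.32. In this comparison 5 of 9 of those markers were lower in obese, with a list median of -1.44, and their part in the result beyond this covariate was not tested. DESeq2 called 30 members higher and 1 lower, against 18.2% and 18.8% of all genes, and limma-voom 47 higher and 2 lower, against 25.99% and 25.7%.

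At endpoint, no difference between obese and lean was detected in the family. The edgeR test called 0 of 81 members, against 0.00612% of all genes, and DESeq2 and limma-voom called 0 as well. A single member, Rpl23, had an unadjusted p under 0.05. The median log2 fold change was -0.04, with 33 members above 0 and 48 below. Rpl23 measured 336, 145, 159 and 150 CPM in lean and 138, 111, 129, 108 and 123 CPM in obese endpoint libraries. All obese values lay below all lean values, against 1.33% of all genes, with a log2 fold change of -0.70 ± 0.22 (SE, edgeR adjusted p = 0.893). Lean endpoint replicate 1, which had the highest mitochondrial share, was far above the others.

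The diet by time interaction, which tests whether the difference between obese and lean changed from midpoint to endpoint, had 0 of 81 members called by edgeR, against 0% of all genes. Its median was -0.54 against 0.00 for all genes, 75 of 81 values lay below 0, and 31 members had an unadjusted p under 0.05. DESeq2 called 1 member higher and 0 lower, against 5.96% and 3.57% of all genes. By limma-voom 1 was higher and 15 lower, against 17.6% and 13.7%. Rpsa had the smallest member p, with an interaction of -0.97 ± 0.31 (SE, edgeR adjusted p = 0.0983). Leaving out obese midpoint replicate 1 gave 1 higher and 26 lower, against 18.3% and 16.4% of all genes.

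From midpoint to endpoint in obese mice, nearly the whole family fell. The edgeR test called 71 of 81 members lower and 3 higher, against 36.1% and 37.8% of all genes, and the median log2 fold change was -0.93 against -0.00 for all genes. In either direction 74 members were called, against 73.9% of all genes. Group ranges did not overlap for 59 members on the lower side and 3 on the higher, against 28.9% and 31.3% of all genes. All 26 members called higher in obese at midpoint were among the 71, and these 2 comparisons share the obese midpoint libraries. Without obese midpoint replicates 2 and 3, the count was 58 lower and 3 higher, against 31.7% and 34.6% of all genes, and the median was -0.67. Of the 9 pan-leukocyte markers, 5 were higher and 3 lower over time in obese mice, and with their mean as a covariate 64 members were called lower and 3 higher, against 33.2% and 34.7% of all genes. The mitochondrial share of counts was 5.79% to 8.06% in obese midpoint and 17.1% to 24.4% in obese endpoint libraries, without overlap. Of 9 fibroblast markers 4 rose and 3 fell, with a list median of 0.26 on the log2 scale. The part of these in the fall of the family was not tested.

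Rpl8 fell to 995, 1128, 1060, 965 and 752 CPM in obese endpoint libraries, all below the lowest obese midpoint value of 1779. The log2 fold change was -1.53 ± 0.24 (SE, edgeR adjusted p = 1.33e-05), or 2.88-fold lower. Rplp1 measured 558, 604, 611, 502 and 427 CPM at endpoint against 767 or more at midpoint, a log2 fold change of -1.42 ± 0.29 (SE, edgeR adjusted p = 0.000193). Rplp0 fell by 1.47 ± 0.23 (SE, edgeR adjusted p = 1.56e-05) on the log2 scale. Rpl32, the gene with the highest level per kilobase, measured 2068, 3489, 3101, 2167 and 2393 CPM at midpoint and 1200, 1324, 1220, 1139 and 895 CPM at endpoint. These ranges did not overlap, and the log2 fold change was -1.19 ± 0.17 (SE, edgeR adjusted p = 4.62e-06).

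In lean mice the change over time had the same direction but was smaller at the median. The edgeR test called 12 of 81 members lower and 1 higher, against 9.50% and 21.4% of all genes, and the median was -0.39 against 0.04 for all genes. Among the 12 were Rpl3, Rpl32, Rpl35, Rpl8, Rps2, Rps15, Rps27l and Rps28, and all 12 were also called lower in obese mice. Ranges did not overlap for 25 members on the lower side and 1 on the higher, against 13.2% and 19.9% of all genes. Rpl32 measured 2010, 1747, 1642 and 2334 CPM at midpoint and 1278, 1544, 1230 and 1192 CPM at endpoint, with a log2 fold change of -0.56 ± 0.18 (SE, edgeR adjusted p = 0.0277). Its endpoint values all lay below its midpoint values. The interaction given above is the test of whether lean and obese mice differ in the change over time.

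The lean count moved with the setting. Leaving out lean midpoint library 1, 3 or 4 gave edgeR counts of 3, 28 and 2. Leaving out lean endpoint library 1, 2, 3 or 5 gave 6, 37, 3 and 5. Leaving out obese midpoint library 1, 2 or 3, which enters through the shared estimate of spread, the scaling and the filter, gave 24, 36 and 29. In these fits the share of all genes called lower ranged from 3.56% to 16.01%. DESeq2 called 27 members lower, against 14.7% of all genes, and limma-voom 37, against 17.98%. Rpl24 was called higher in each of these fits. Of the 9 pan-leukocyte markers, 3 were lower and 0 higher over time in lean mice, and with their mean as a covariate 29 members were called lower and 1 higher, against 12.96% and 22.9% of all genes.

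**Figure D3:**
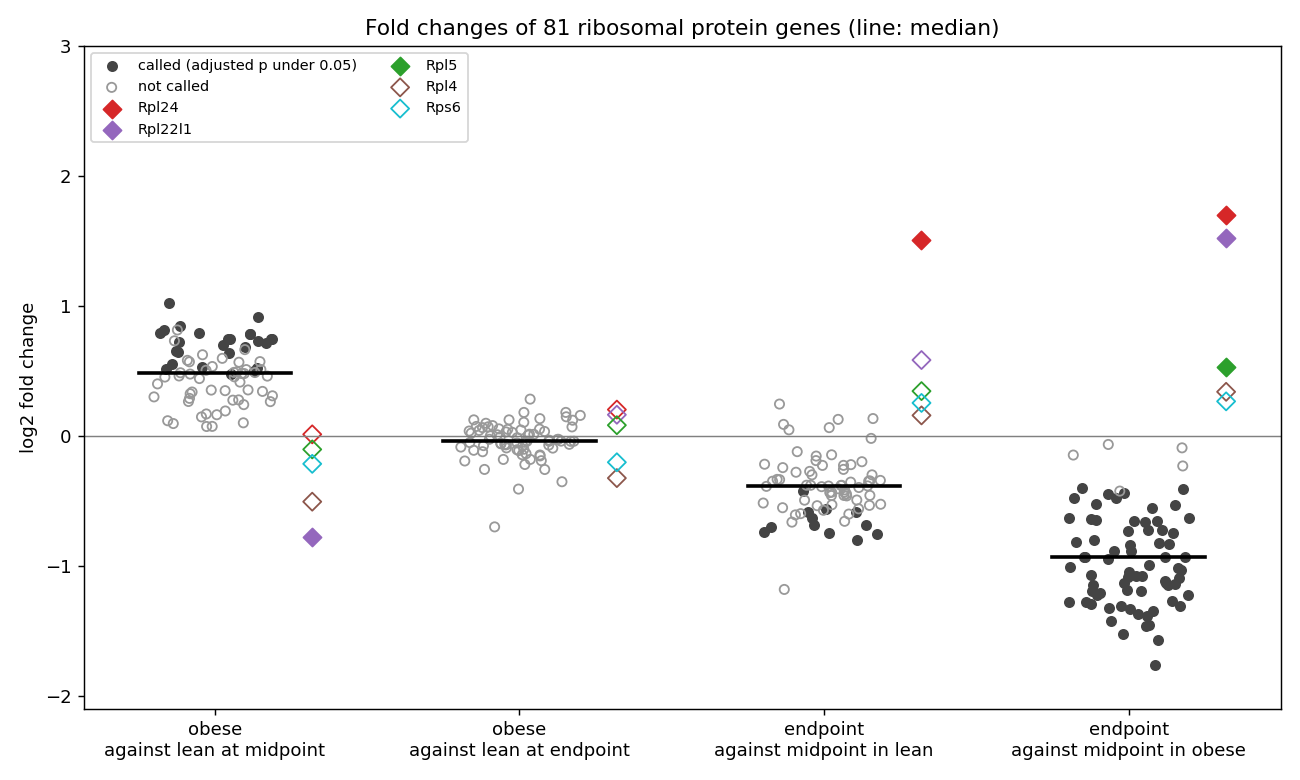
Each point is the log2 fold change (y axis) of 1 of 81 ribosomal protein genes in 4 comparisons (x axis), filled where the edgeR adjusted p was under 0.05; black lines are medians and diamonds are 5 genes that departed from the family. The medians are 0.49, -0.04, -0.39 and -0.93 from left to right, while Rpl24 reaches 1.51 and 1.70 in the comparisons over time.

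Rpl24 was the clearest exception. It encodes a protein at the interface of the subunits that forms a bridge between them, and the counted gene lies at chr16:55966275-55971435 on the plus strand. It measured 0.890, 0.679, 0.628 and 0.434 CPM in lean midpoint and 0.951, 0.463, 0.634, 0.731 and 0.524 CPM in obese midpoint libraries. At endpoint it measured 2.4, 1.2, 1.76 and 2.19 CPM in lean and 2.35, 1.62, 2.12, 2.47 and 2.23 CPM in obese libraries. All 9 endpoint values exceeded all 9 midpoint values. The log2 fold change was 1.51 ± 0.29 (SE, edgeR adjusted p = 0.000884) in lean and 1.70 ± 0.26 (SE, edgeR adjusted p = 1.31e-05) in obese mice, the highest of the family in both.

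The counts behind these values were few, 20 to 59 per library at midpoint and 64 to 128 at endpoint. Only 0.706% of the coding windows of Rpl24 were unique. Its exons overlapped a processed transcript, Gm28037, over 484 of 1030 bases and over 83.4% of its coding bases, and Gm28037 had 0 counts in all libraries. Reads that fall in both genes may therefore not be included, and the role of this overlap in the change over time was not tested. Other members with a large overlap were Rpl35 (66.2% of bases, with Wdr38) and Rpl23a (62.3%, with Tlcd1 and Snord42b).

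Rpl22l1 and Rpl22 gave the paralog pair with opposite changes in obese mice over time. Rpl22l1 reached 4.65, 5.26, 4.93, 5.20 and 4.85 CPM at endpoint, all above the obese midpoint values given above, and its log2 fold change was 1.52 ± 0.26 (SE, edgeR adjusted p = 3.89e-05). Rpl22 measured 555, 623, 686, 537 and 556 CPM at midpoint and 461, 480, 489, 458 and 341 CPM at endpoint, with a log2 fold change of -0.41 ± 0.14 (SE, edgeR adjusted p = 0.0159). Over all libraries Rpl22 had a mean of 178 CPM per kilobase and Rpl22l1 7.19. Of their coding windows 69.2% and 15.6% were unique, so the size of this gap is uncertain. In lean mice Rpl22l1 measured 7.41, 3.25, 2.95 and 4.27 CPM at endpoint, and its log2 fold change of 0.58 ± 0.29 (SE, edgeR adjusted p = 0.122) did not pass. Its coding GC content of 39.6% was low for the family. After a GC correction alone the change in obese mice was -0.10 and not called, and after a correction for GC and length it was 0.67 and called.

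Rpl5, which carries 5S RNA into the large subunit, measured 18.9, 21.0, 22.5, 19.1 and 19.7 CPM in obese midpoint and 30.9, 28.2, 29.2, 28.7 and 29.1 CPM in obese endpoint libraries. The ranges did not overlap, and the log2 fold change was 0.53 ± 0.14 (SE, edgeR adjusted p = 0.00183), while its partner Rpl11 fell by 1.05 ± 0.21 (SE, edgeR adjusted p = 0.000156). No coding window of Rpl5 was unique, 26.7% of its bases overlapped Fam69a or Snord21, and a GC correction turned its change to -1.41, called lower.

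Rpl4, a protein with a loop in the exit tunnel, was one of the most abundant members and did not follow the family. It measured 2578, 3073, 2968 and 2754 CPM in lean midpoint, 2772, 938, 1550, 2485 and 2255 CPM in obese midpoint, 4837, 2792, 2494 and 2554 CPM in lean endpoint and 2630, 2668, 2803, 2528 and 2013 CPM in obese endpoint libraries. Obese midpoint replicates 2 and 3, which were highest for most members, were lowest for Rpl4. It was called in no comparison. Of its coding windows 79.8% were unique, against at most 15.6% in Rpl22l1, Rps6, Rpl5 and Rpl24. No other gene overlapped Rpl4, and none overlapped Rpl22l1 or Rps6. Rps6 had log2 fold changes of 0.25 ± 0.20 (SE) in lean and 0.26 ± 0.18 (SE) in obese mice over time, neither called. With the counts of its 4 pseudogene rows added, it was called lower in obese mice at -1.01 ± 0.17 (SE, edgeR adjusted p = 2.95e-05), in the direction of the family.

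**Figure D4:**
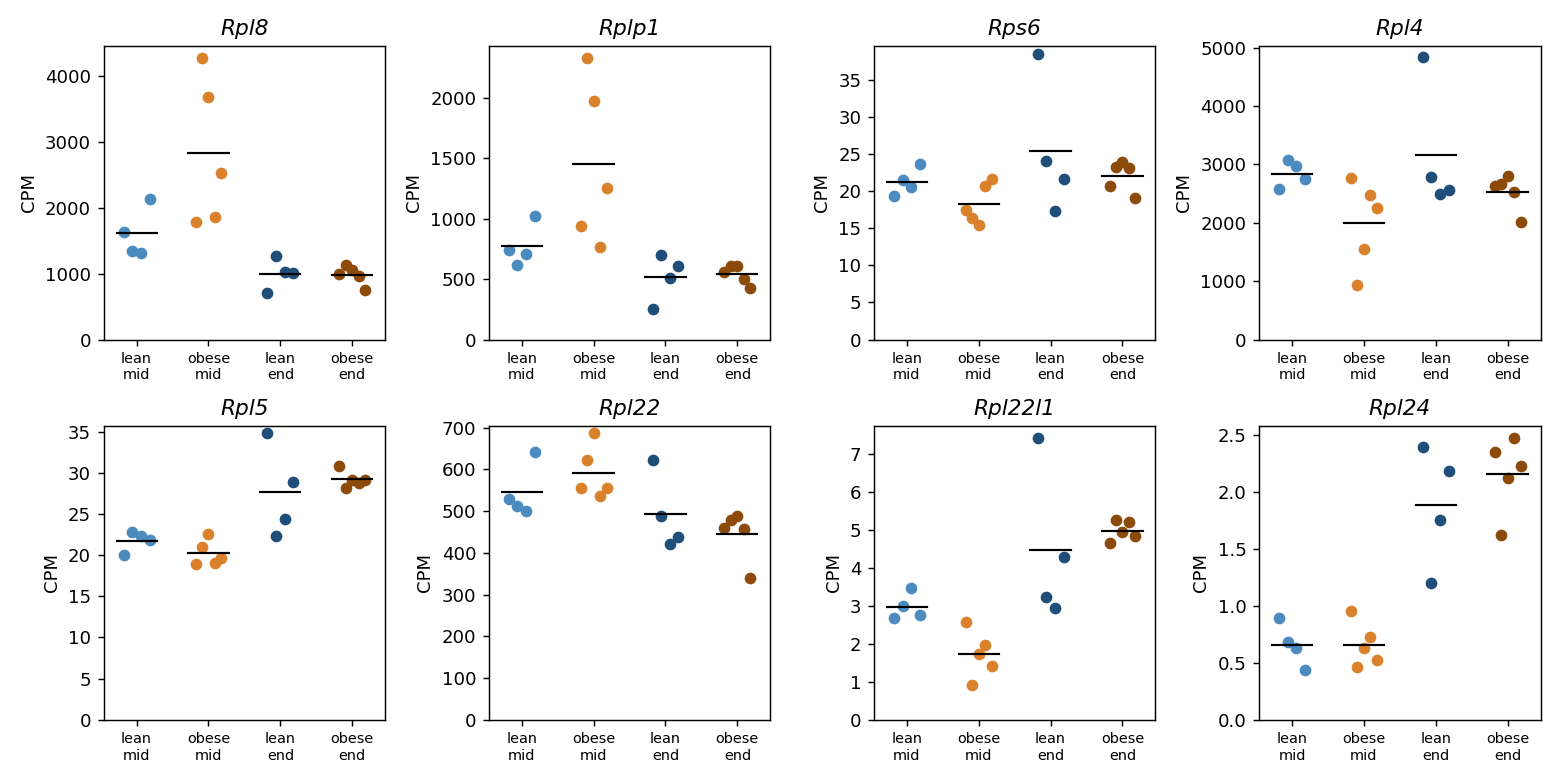
Each panel plots the CPM (y axis, from 0) of 1 gene in each of the 18 libraries by group (x axis), with black lines at group means. Rpl8 and Rplp1 are highest in obese midpoint libraries, up to 4279 and 2323 CPM, while Rpl4 falls to 938 CPM in that group and Rpl22l1 and Rpl24 are highest at endpoint.

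Without a GC correction, both genes of each other paralog pair fell in obese mice over time. Rpl3 fell by 0.93 ± 0.18 (SE, edgeR adjusted p = 0.000113) on the log2 scale and its muscle paralog Rpl3l by 1.76 ± 0.45 (SE, edgeR adjusted p = 0.0017), though Rpl3l was near 0, with 0.0938 to 1.46 CPM over the libraries. Rpl7 fell by 0.84 ± 0.16 (SE) and Rpl7l1, a relative with a role in ribosome assembly, by 0.53 ± 0.13 (SE). Rpl36a fell by 0.65 ± 0.17 (SE) and the intronless copy Rpl36al by 0.66 ± 0.15 (SE). Rps27 fell by 0.80 ± 0.24 (SE) and Rps27l, a p53 target in human cells, by 0.84 ± 0.14 (SE). All 8 genes were called lower by edgeR. Under the GC and length correction Rps27 was called higher, at 1.08, and with GC alone it was at 0.11 and not called. Neither Rpl36a nor Rpl36al had a unique coding window, and Rps27 had none, whereas Rpl7l1 had 77.8% and Rps27l 51.0%.

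The size of a member's change followed the GC content of its coding sequence. Across the 81 tested members the Spearman correlation of GC content with the log2 fold change was 0.69 in obese against lean at midpoint, -0.46 in lean mice over time and -0.64 in obese mice over time. These are descriptions across genes that share libraries. Removing a smooth trend on GC content and length from each library gave 22 members higher and 1 lower at midpoint, against 7.44% and 4.39% of all genes, with a median of 0.37, but only 8 of the 27 calls were the same genes in the same direction. In obese mice over time this correction gave 43 members lower and 14 higher, against 25.98% and 29.6% of all genes, with a median of -0.47. Of the 74 calls 40 were kept, and 12 members called lower were then called higher, or the reverse for Rpl5. Among the 12 were Rps15, at 0.29, Rplp1, at 0.39, and Rpl36, at 0.95, while Rpl8 was at 0.09 and not called. In lean mice it gave 10 members lower and 5 higher, against 10.02% and 13.5% of all genes, with a median of -0.14, and 2 of the 13 calls were kept.

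A correction for GC content alone, added after the data had been seen, gave 59 members lower and 2 higher in obese mice over time, against 28% and 28.9% of all genes, with a median of -0.73, and 55 of the 74 calls were kept. In lean mice over time it gave 16 lower and 2 higher, against 10.8% and 14.0% of all genes, and 5 of the 13 calls were kept. At midpoint it gave 25 higher, against 7.91% of all genes, and 8 of the 27 calls were kept. Rpl24 was called higher over time in lean and obese mice under both corrections, at 1.61 and 1.84 with GC alone and at 1.86 and 2.27 with GC and length. The GC content used for the correction is that of a gene's longest annotated transcript, which can hold retained introns. Ribosomal protein transcripts are among the shortest, so the corrected values of single genes are uncertain.

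**Figure D5:**
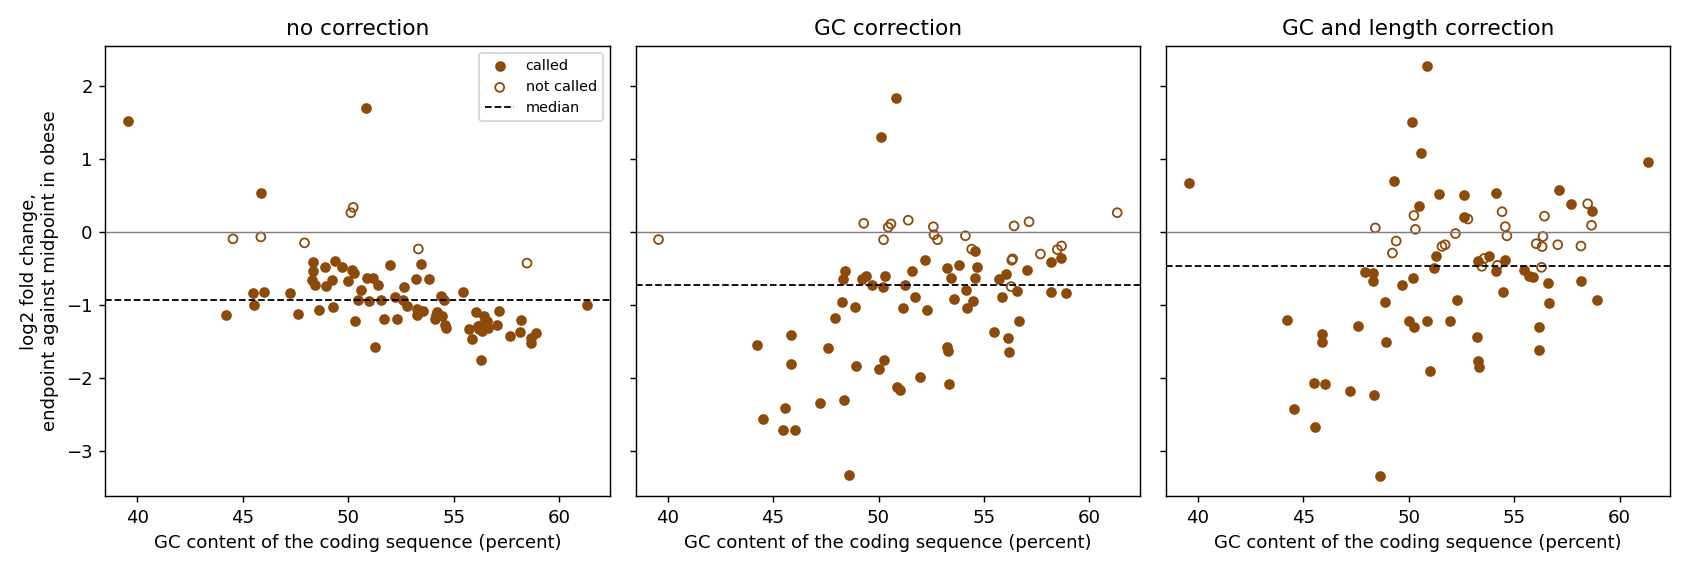
Each point is 1 of 81 ribosomal protein genes, with the GC content of its coding sequence on the x axis and its log2 fold change from midpoint to endpoint in obese mice on the y axis, without correction (left), with a GC correction (middle) and with a GC and length correction (right); filled points were called by edgeR and dashed lines are medians. The medians are -0.93, -0.73 and -0.47, and the Spearman correlation with GC content is -0.64 on the left and 0.39 and 0.35 after the corrections.

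Some proteins of the same ribosome have symbols outside the pattern. Rack1, a scaffold on the small subunit, and Fau, which encodes a ribosomal protein fused to a ubiquitin-like protein, were called higher in obese at midpoint, with log2 fold changes of 0.65 and 0.79. Rps3a1 had -0.05 there and was not called. Rack1, Fau and Rps3a1 were each called lower in obese mice over time, Rack1 at -1.19 (edgeR adjusted p = 2.61e-05). In lean mice over time Rack1 had -0.48 and Rps3a1 -0.32, and neither was called by edgeR.

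Rows outside the cytoplasmic ribosome were tested in the same fit. Of all genes, 16.7% were called higher and 12.8% lower in obese at midpoint, and 36.1% lower and 37.8% higher in obese mice over time. Of 76 tested genes for mitochondrial ribosomal proteins, which build the separate ribosome of that organelle, 36 were called higher and 2 lower in obese at midpoint, with a median of 0.48. In obese mice over time 57 were called lower and 6 higher, with a median of -0.91. Of 107 tested pseudogene rows of ribosomal proteins, 18 were called higher and 1 lower at midpoint. The share of these rows called higher was near that of all genes. In obese mice over time 75 pseudogene rows were called lower and 3 higher, with a median of -1.07.

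Genes that share the TOP motif or serve ribosome production were called in both directions, as all genes were. Of 19 translation factors and other genes of the TOP class, 6 were called higher and 2 lower in obese at midpoint. This stood against 16.7% and 12.8% of all genes, and the median was 0.01. The elongation factor Eef2 rose by 0.77, while the initiation factor subunit Eif3e had -1.54 and the nucleolar chaperone Npm1 -1.39, both called lower. In obese mice over time 7 rose and 9 fell, against 37.8% and 36.1% of all genes, among them Npm1 at 2.97 and Eif3k at -1.32. Of 30 ribosome biogenesis genes, 9 were called higher and 3 lower at midpoint, against 16.7% and 12.8% of all genes. Over time in obese mice 14 fell and 9 rose, against 36.1% and 37.8% of all genes, with a median of -0.18. Among the 9 that rose were Nop58, a core protein of box C/D particles, at 3.27 and Dkc1, the pseudouridine synthase, at 2.68. Of 17 tested regulators of TOP messages and ribosome synthesis, 5 were higher and 2 lower at midpoint, against 16.7% and 12.8% of all genes. Mdm2, the p53 ligase that Rpl5 and Rpl11 bind, had -1.10 at midpoint and 2.46 in obese mice over time, both called.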

How the data were processed

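RNA of mCherry-positive E0771 cells was measured in 19 libraries, 18 of which were used. Per the file headers, the deposited table gives raw counts for each gene in each library, as whole numbers, beside positions and exon lengths. The columns of endpoint libraries hold the same kind of count as those of midpoint libraries. TopHat, DESeq and mm10 appear in the processing notes of the submitters, with no versions. The sources used here do not give the counting tool, its strand setting or its treatment of reads with several matches.

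Symbols came from the GENCODE mouse annotation by identifier (37693 of 39017 matched). The tests ran in edgeR 4.0.16 (R 4.3.3). The filter filterByExpr kept 16352 genes, TMM scaled the libraries, and 1 quasi-likelihood fit with a mean per group served all 5 contrasts, with Benjamini-Hochberg adjustment over all genes and a threshold of 0.05. CPM of members that passed the filter are TMM-scaled, and the prior count was 2 on the log2 scale. CPM of Rpl10l and Rpl39l, of the epithelial markers and of the summed marker lists were scaled by total counts alone. Each SE is the fold change divided by the square root of F. The scripts were tested on simulated data. The labels describe separate tumors, so p-values measure the spread between tumors of 1 cell line. No library repeated another, since counts of libraries within a group differed by a chi-square of at least 35.7 per degree of freedom. With 4 or 5 libraries in a group, the spread between tumors limits precision more than depth, except for genes with few counts such as Rpl24 and Rpl3l.

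The members, the gene lists and the rule for named genes were chosen with earlier results of these data known. The rule takes the 5 highest and 5 lowest fold changes in each contrast, Rpl24, paralogs with their partners, and members with known roles. The full values of Rpl32 and the list genes named were chosen after their values were seen. Alternatives were other scalings and filters, DESeq2 1.42.0, limma-voom (limma 3.58.1), the compared groups alone, the replicate block, GC and length offsets, a leukocyte covariate, pseudogene counts added to parents and each library left out. Windows of 50 coding bases were compared with all GENCODE transcripts. Promoters, 250 bases before to 50 after the start, are RefSeq's (GRCm38.p6), and 20 members had no entry.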

Additional observations from a re-analysis of the deposited data

Results flagged for a closer look

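Of 92 sets of 4 or 5 libraries of a group checked for named members and family measures, 4 had a library far from the others, close to what chance gives with about 1 in 20. Rpl4 was at 12.2 log2 CPM in lean endpoint replicate 1, against 11.3 to 11.4 in the other lean endpoint libraries. In obese endpoint replicate 5, Rpl22 was at 8.41 against 8.84 to 8.93, Rps27 at 0.52 against 1.03 to 1.16 and Rps27l at 6.19 against 6.57 to 6.66 log2 CPM in the other obese endpoint libraries.

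Data outside the comparisons also held a signal. In lean endpoint replicate 4, which was left out, the 15 members on chromosomes 1 to 4 took 0.760% of the counts on those chromosomes, against 0.762% to 1.04% in the other lean endpoint libraries. Pseudogene rows of ribosomal proteins took at least 0.487% of the counts in each of the 18 libraries.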

How the results depend on the processing

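Over time in obese mice, leaving out each library gave 68 to 75 calls and medians of -1.02 to -0.80, and the GC and length correction moved the median to -0.47 and turned 12 of 74 calls. The obese against lean comparison at endpoint had 0 calls in every setting run, with 0 to 0 calls and medians of -0.08 to 0.06 leaving out each library. In the other comparisons counts moved with the setting, and the cause was not tested. At midpoint, 27 members called became 11 with no filter, against 4.13% of all genes called higher and 8.30% lower. With limma-voom the count was 49, against 25.99% and 25.7%. It was 0 with the compared groups alone, 0 with the leukocyte covariate and 0 without obese midpoint libraries 2 and 3 (median 0.17). In each of these settings 0 of all genes were called, 15200 being tested with the groups alone. Leaving out these 2 libraries was, like GC alone, a setting chosen after seeing the data. Leaving out each library gave 0 to 51 calls and medians of 0.33 to 0.57. For the interaction, DESeq2 called 1 and limma-voom 16, each library left out gave 0 to 27 calls and medians of -0.63 to -0.36, and the median without obese midpoint libraries 2 and 3 was -0.17. In lean mice over time, 13 calls became 21 with RLE scaling, 25 with TMM factors from other genes, 24 with a filter of 5 CPM, which Rpl24 does not pass, 28 with DESeq2, 39 with limma-voom, 32 with the groups alone, 30 with the covariate and 48 without obese midpoint libraries 2 and 3. The GC and length correction moved that median to -0.14, and each library left out gave 2 to 37 calls and medians of -0.50 to -0.35.

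With the replicate number as a block, 16 members were called at midpoint, against 11.8% of all genes higher and 15.1% lower. In lean mice over time 6 were called with this block, against 17.6% and 5.23%. Same-numbered libraries correlated at -0.40 to 0.55 and not every library matched its own number best, so the numbers do not pair the samples.

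Some named genes changed sign. With pseudogene counts added, Rps6 was at 0.50 at midpoint, -0.73 in the interaction, -0.27 in lean and -1.01 in obese mice over time, and Rps16 and Rps13 at -0.20 and -0.081 at endpoint. Rpl24, at 0.01 at midpoint, was at -0.043 with RLE, -0.042 without mitochondrial genes, -0.039 with DESeq2, -0.012 with TMM from other genes, -0.069 with no filter, -0.16 with limma-voom, -0.059 with the groups alone, -0.025 with the block and -0.10 with GC and length. With GC and length and with GC alone, Rpl5 was at 0.75 and 0.72 at midpoint, -0.79 and -0.77 in the interaction, -0.61 and -0.64 in lean and -1.40 and -1.41 in obese mice over time, and Rpl30 at -0.94 and -1.06 in lean. Rps27 was at 0.57 and 0.21 in lean and 1.08 and 0.11 in obese mice, and Rplp2 at 0.14 and 0.012 in lean. With GC and length only, midpoint values were -0.024 for Rpl8, -0.028 for Rplp1, -0.042 for Rpl36, -0.41 for Rps27 and -0.091 for Rpl3l. The Rpl36 interaction was 0.13, lean values were 0.15 for Rplp1 and 0.028 for Rpl11, and obese values 0.092 for Rpl8, 0.29 for Rps15 and 0.39 for Rplp1. With GC alone, Rpl22l1 was at -0.34 in lean and -0.10 in obese mice, Rpl4 at -0.023 in the interaction and -0.11 in obese mice, and Rpl3l at -0.028 at midpoint. Without obese midpoint libraries 2 and 3, Rpl22 and Rpl3l were at -0.011 and -0.17 at midpoint, and Rps6 and Rpl4 at -0.036 and -0.055 in the interaction. With the covariate, Rpl3l and Rpl7l1 were at -0.10 at midpoint and Rpl24 at -0.17 in the interaction. Leaving out each library gave -0.17 to 0.15 for Rpl24 at midpoint, -0.026 to 0.41 for Rps14 at endpoint, -0.13 to 0.34 for Rps6 in the interaction and -0.041 to 0.40 for Rps6 in lean mice over time.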
